A study of Mus musculus with 6 samples.

Results

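The 33 Hox genes measured here were covered by 48 probe sets, out of 18193 genes with a symbol of their own on the array and 45037 probe sets in all. They were taken by name alone: every probe set whose platform annotation gives 1 symbol, made of Hox, a cluster letter from a to d and a number, with no filter on signal. RNA came from NIH3T3 cells, an immortalised line of mouse embryonic fibroblasts, in a single clone (clone M) that carries lac operator (lacO) sequence at multiple insertions. The study moved genomic regions inducibly to the inner nuclear membrane. In 3 tethered samples the lacO sequence lay at the nuclear periphery, and in 3 untethered samples it lay centrally. All 6 samples are described alike otherwise, in serum-containing medium at about the same confluency, with total RNA labelled with biotin for Affymetrix arrays, and no treatment agent is named for either group. Nothing states that the 3 samples of a group were separate cultures, so p-values measure the spread between these samples, which may be technical.

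Hox genes encode homeodomain transcription factors that give cells their position along the head-to-tail axis and along the limb. Mammals carry them in clusters a, b, c and d, in which the gene number, the paralog group, follows the order on the chromosome: low numbers act toward the head (anterior), high numbers toward the tail and the limb tip (posterior). Fibroblasts keep in culture a pattern of Hox expression that reflects the body site they came from. The question here was which part of each cluster gave signal in this clone, and whether that signal differed when the lacO sequence was held at the periphery.

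The RefSeq gene table lists 39 Hox genes: 11 in the Hoxa cluster on chromosome 6, 10 in Hoxb on chromosome 11, 9 in Hoxc on chromosome 15 and 9 in Hoxd on chromosome 2. Of these, 9, 9, 7 and 8 had a probe set of their own, in the same order. The others were not analysed here, and 3 probe sets that carry the symbols of a pair of neighbours (Hoxd3 with Hoxd4, or Hoxb7 with Hoxb8) were left out. Some gene models overlap. That of Hoxa3 spans Hoxa4, Hoxa5 and Hoxa6, and those of Hoxb3 and Hoxb4, Hoxd3 and Hoxd4, and Hoxd10 and Hoxd11 overlap as pairs, so a probe set in a shared stretch may read either gene.

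The median intensity of all probe sets lay between 482.5 and 490.8 on every array, and that of the 48 Hox probe sets between 390.8 and 430.5. Bright probe sets differed more between arrays. The 95th percentile of all intensities was 3377 on untethered replicate 1 and 3407 on tethered replicate 1, and ran from 3470 to 3926 on the others. The marker genes fixed for the cell type gave the fibroblast picture: 9 of 11 measured fibroblast markers, among them Vim, Col1a2 and Fn1, lay above the level described next, and Pdgfra and Lum did not. No detection calls were used here. As an empirical level of genes that fibroblasts do not use, the 95th percentile of 44 olfactory receptor probe sets was taken, a mean log2 intensity of 9.94 (intensity 981). It is a guide and not a call of presence: probe sets differ in affinity, 3 of the 44 lie above it by construction, and so did 6 of 28 marker genes of epithelial, endothelial, blood, neural or muscle cells. Levels of different probe sets are therefore listed side by side and not ranked as amounts of RNA.

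Signal above this level came from the middle of the clusters and from paralog group 3. The 13 probe sets above it belonged to 9 genes: Hoxa3, Hoxa5 and Hoxa7, Hoxb3 and Hoxb6, Hoxc6 and Hoxc9, and Hoxd8 and Hoxd9. That is 27.1% of the Hox probe sets, against 28.9% of all probe sets. Counted by gene, with any probe set above the level, it is 9 of 33 Hox genes (27.3%) against 43.0% of all 18193 genes. This count favours genes with more probe sets, and the Hox genes had fewer per gene: 48 for 33 genes, against 34945 for 18193. By position, with groupings made after the values were seen, 3 of 16 probe sets of paralog groups 1 to 4 lay above the level (all of group 3), 10 of 20 of groups 5 to 9, and 0 of 12 of groups 10 to 13. The posterior probe sets reached a mean log2 intensity of at most 9.28. By cluster the counts were 5 of 16 for Hoxa, 2 of 11 for Hoxb, 3 of 11 for Hoxc and 3 of 10 for Hoxd. The probe sets nearest the level were Hoxa3 1427433_s_at (9.92), Hoxb3 1456229_at (9.73) and Hoxb9 (9.56) below it, and Hoxa3 1431392_at (10.00), Hoxb6 (10.07) and Hoxd8 1433638_s_at (10.09) above it. With the 99th percentile of the olfactory receptors 6 probe sets remained, and 23 exceeded the median over the whole array. Those 6 were Hoxa3 1452421_at, Hoxa5 1443803_x_at, Hoxa7, Hoxc9, Hoxd8 1431099_at and Hoxd9, so no Hoxb gene and not Hoxc6. The brightest olfactory receptor probe set had a mean of 11.16, and the brightest Hox probe set, Hoxa3 1452421_at, 11.17.

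**Figure D1:**
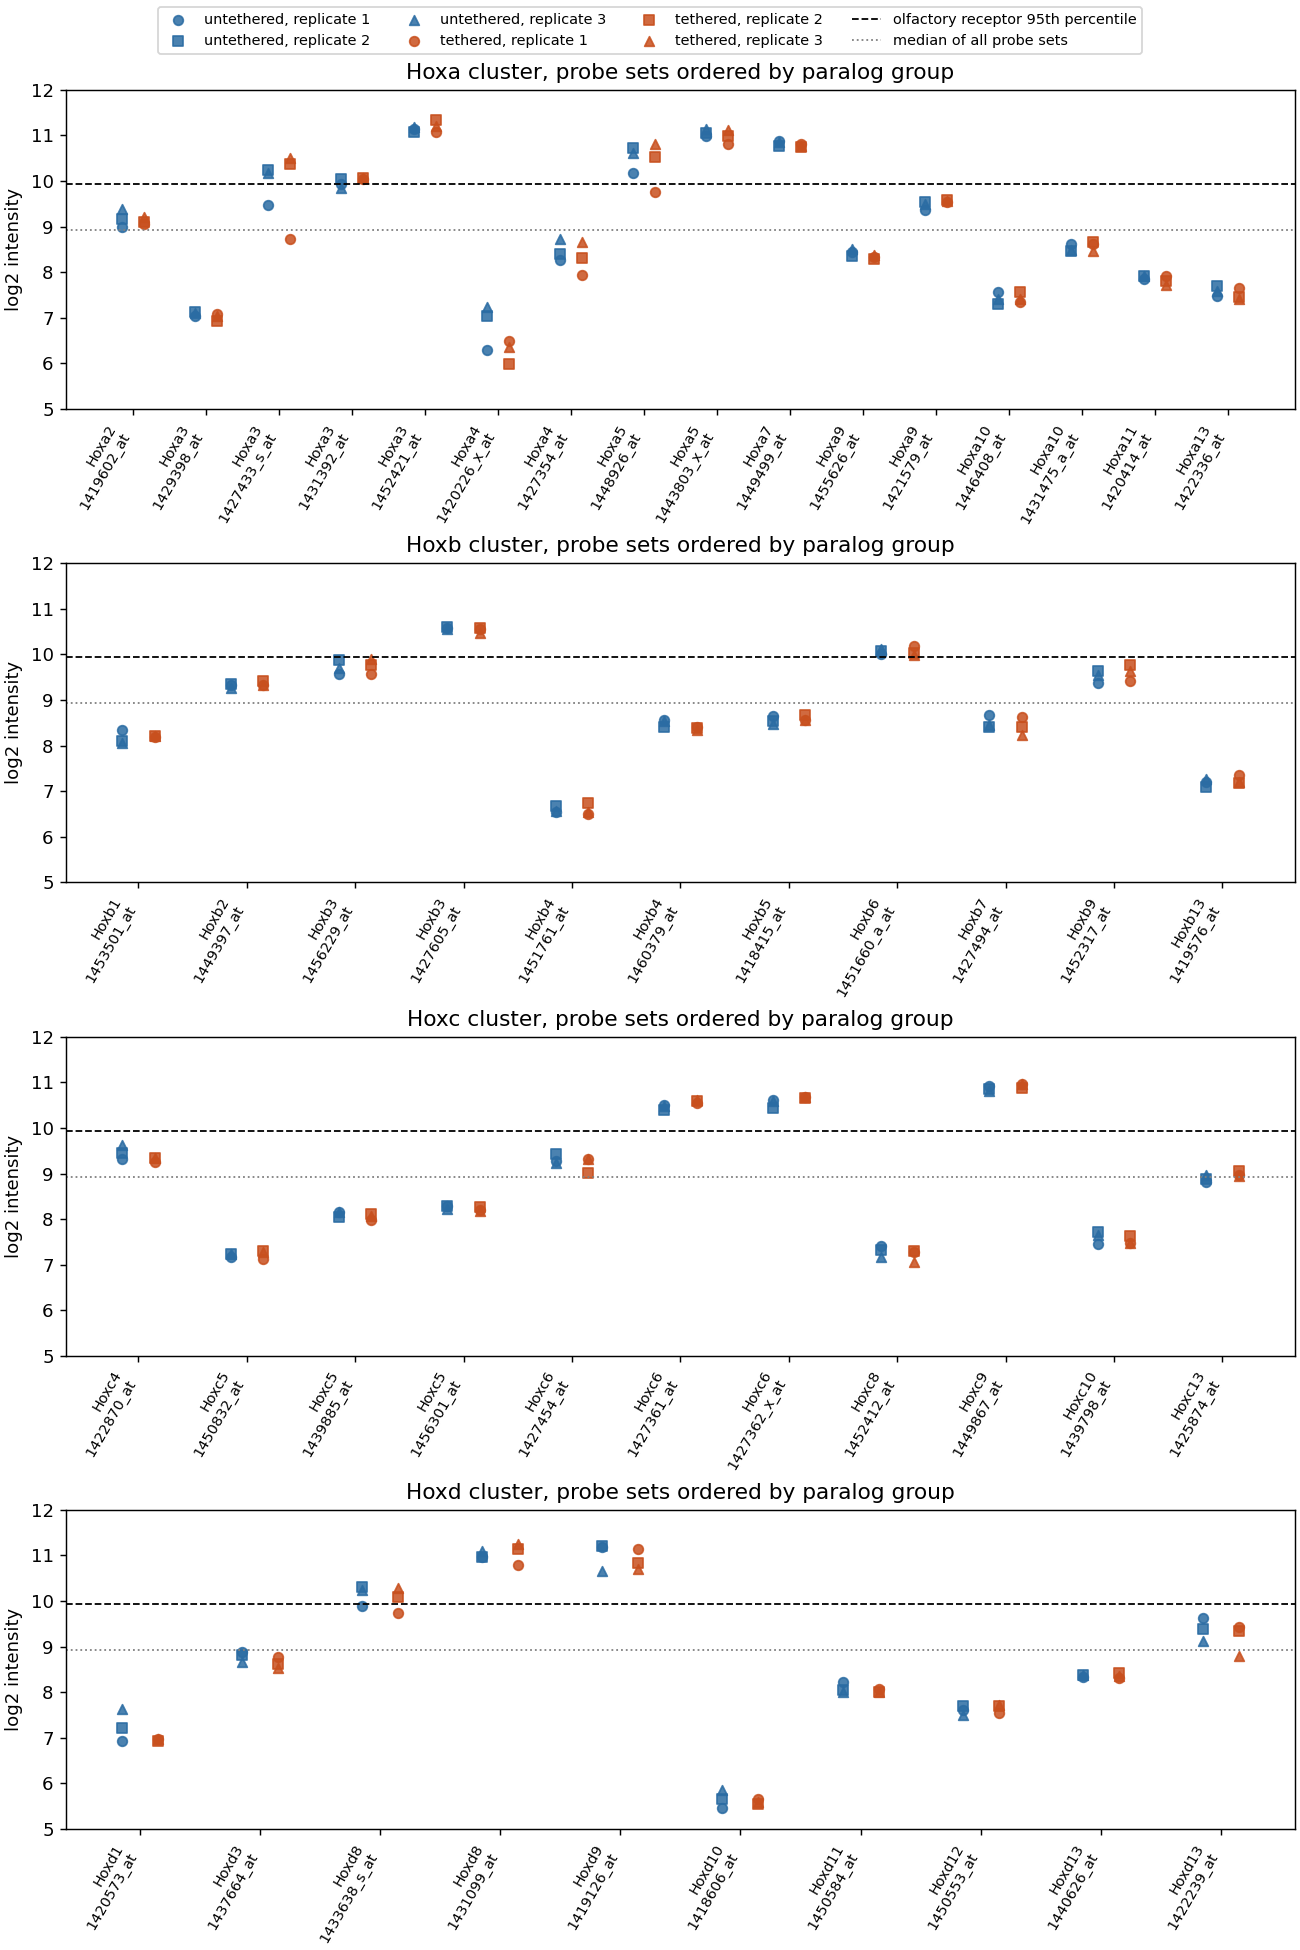
Log2 intensity (vertical axis) of each of the 48 Hox probe sets on all 6 arrays, 1 panel per cluster, with probe sets in order of paralog group. Blue marks are untethered and orange marks tethered samples, the marker shape gives the replicate number, the dashed line is the olfactory receptor 95th percentile (9.94) and the dotted line the median of all probe sets (8.93); signal above the dashed line comes from groups 3 and 5 to 9.

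**Figure D2:**
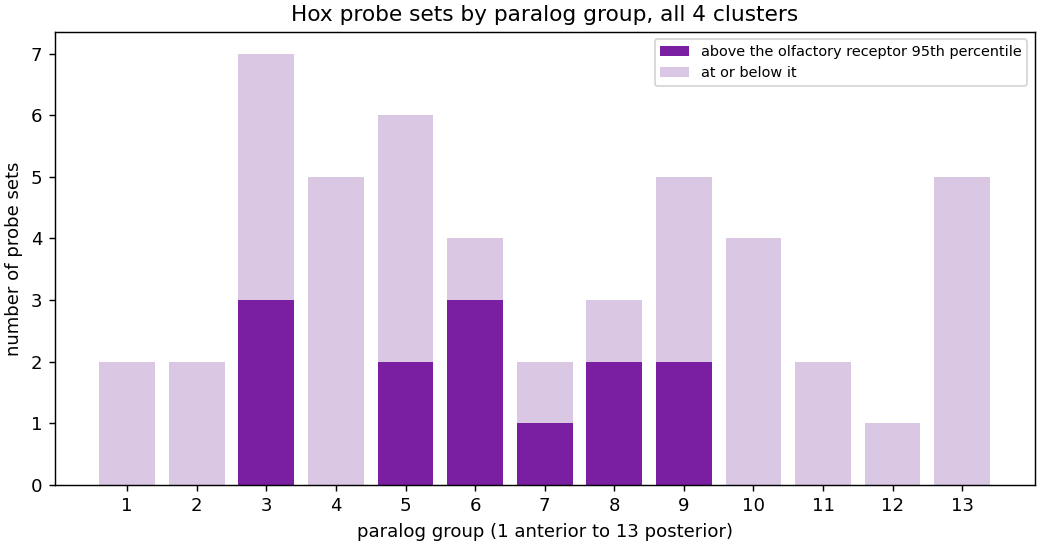
Number of Hox probe sets (vertical axis) in each paralog group (horizontal axis, 1 anterior to 13 posterior) over all 4 clusters, split into those above the olfactory receptor 95th percentile (dark) and those at or below it (light). Groups 10 to 13 hold 12 probe sets and none above the level.

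In the Hoxa cluster, Hoxa5, which patterns the lower neck and the lung, had a mean above the level on both of its probe sets. On 1443803_x_at the tethered replicates 1, 2 and 3 read 1791, 2030 and 2210 and the untethered replicates 2017, 2141 and 2246. On 1448926_at they read 873, 1474 and 1793 against 1154, 1682 and 1578. The groups overlapped on both, and the array labelled tethered replicate 1 was the lowest on both. The log2 difference, tethered minus untethered, was -0.09 (SE 0.095) on the first and -0.14 (SE 0.29) on the second, where it turned to 0.16 without tethered replicate 1.

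Hoxa7, which acts in the thoracic segments, was among the steadiest members. Its probe set read 1795, 1718 and 1751 in the tethered and 1885, 1755 and 1842 in the untethered replicates, a log2 difference of -0.06 (SE 0.060). The standard deviation over all 6 arrays was 0.050 on the log2 scale, lower than in all but 5.53% of probe sets.

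Hoxa3, a regulator of pharyngeal organs and the thymus, has 4 probe sets that did not move together. Probe set 1452421_at read 2168, 2603 and 2371 in tethered and 2260, 2154 and 2332 in untethered replicates, and 1431392_at read 1056, 1068 and 1077 against 979, 1053 and 926. On the second the groups did not overlap, with 1056 as the lowest tethered and 1053 as the highest untethered value, and its log2 difference was 0.12 (SE 0.068). Probe set 1427433_s_at read 424, 1320 and 1463 against 716, 1209 and 1150, so that both arrays numbered 1 stood far below the other 4, and its log2 difference of -0.09 (SE 0.50) became 0.48 without tethered replicate 1. The fourth, 1429398_at, stayed between 122 and 139 on every array. The suffix s marks a probe set that the manufacturer designed against sequence shared by several transcripts.

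The other Hoxa genes had no probe set above the level. Hoxa2, which patterns the second pharyngeal arch, read between 512 and 665, and Hoxa9, active in the trunk and in blood progenitors, between 656 and 763 on 1421579_at and between 313 and 366 on 1455626_at. Hoxa4 read between 246 and 424 on 1427354_at and between 63.6 and 150 on 1420226_x_at. The posterior genes Hoxa10, Hoxa11 and Hoxa13, needed for the limb and the urogenital tract, had means of 8.56 or less on the log2 scale, with Hoxa11 between 211 and 243 and Hoxa13 between 169 and 208.

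In the Hoxb cluster, Hoxb3, an anterior gene of the hindbrain and neck, read 1499, 1542 and 1427 in tethered and 1536, 1552 and 1515 in untethered replicates on 1427605_at, a log2 difference of -0.04 (SE 0.059). Its second probe set, 1456229_at, read between 756 and 960, with both arrays numbered 1 the lowest. Hoxb6, which acts in the trunk, read 1165, 1041 and 1022 against 1039, 1075 and 1120, and its difference of -0.0049 (SE 0.075) had no stable sign: it was 0.023 after quantile normalization and 0.0030 with arrays centred on their medians. Hoxb2 (615 to 687) and Hoxb9 (663 to 869) followed below the level. Hoxb1, Hoxb4, Hoxb5 and Hoxb7 had means between 6.59 and 8.58, and Hoxb13, the gene at the posterior end, read between 138 and 165.

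In the Hoxc cluster, Hoxc9, which patterns the lower thorax, read 1993, 1877 and 1991 in tethered and 1927, 1852 and 1809 in untethered replicates (log2 difference 0.07, SE 0.061). Hoxc6, an upper thoracic gene, gave the Hox difference with the smallest p. On 1427361_at the tethered replicates read 1502, 1548 and 1571 and the untethered replicates 1448, 1339 and 1424, and on 1427362_x_at 1631, 1618 and 1635 against 1568, 1384 and 1531. The groups did not overlap on either, and the log2 differences were 0.14 (SE 0.061, 95% interval -0.01 to 0.28) and 0.13 (SE 0.069). The third probe set, 1427454_at, went the other way, at 635, 518 and 635 against 621, 690 and 601 (-0.10, SE 0.11). None of these passed the threshold (limma with Benjamini-Hochberg adjustment, adjusted p = 0.989 for 1427361_at), and with 1 array left out that difference ran from 0.10 to 0.16.

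The other Hoxc genes lay below the level. Hoxc4 read between 614 and 786 and Hoxc13, known from hair and nails, between 451 and 529. The 3 probe sets of Hoxc5 had means between 7.23 and 8.24. Hoxc8 read between 134 and 171 and Hoxc10 between 176 and 210.

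In the Hoxd cluster the signal lay at the neighbours Hoxd8 and Hoxd9, which act in the trunk and the early limb bud. Hoxd9 read 2275, 1826 and 1667 in tethered and 2331, 2348 and 1614 in untethered replicates, with both arrays numbered 1 and untethered replicate 2 apart from the other 3 arrays. Hoxd8 read 1771, 2271 and 2431 against 2003, 1995 and 2208 on 1431099_at, and 848, 1096 and 1241 against 948, 1275 and 1203 on 1433638_s_at. The groups overlapped on all 3 probe sets. Their log2 differences were -0.12 (SE 0.19) for Hoxd9 and 0.05 (SE 0.13) and -0.11 (SE 0.18) for Hoxd8. Both Hoxd8 signs turned when 1 array was left out, to -0.04 without tethered replicate 3 and to 0.04 without tethered replicate 1.

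The other Hoxd genes had no probe set above the level. Hoxd10 read between 44.2 and 57.9. Hoxd11 read between 255 and 297 and Hoxd12 between 182 and 211. Hoxd13, the gene of the limb tip, read 691, 645 and 444 against 786, 669 and 561 on 1422239_at, and between 318 and 344 on 1440626_at. Hoxd1 read 126, 121 and 125 in tethered and 122, 148 and 197 in untethered replicates, and Hoxd3 between 369 and 469.

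The sequences at the start of 4 members whose arrays behaved differently are shown with the core read by homeodomains, TAAT or its reverse complement ATTA, in capitals: Hoxa5 and Hoxd8, each with a probe set that was lower on both arrays numbered 1, Hoxd9, which was high on those and on untethered replicate 2, and Hoxa7, which varied little. Each is the RefSeq window from 250 bases before to 50 after the gene start, 5′ to 3′ on the gene's strand, build GRCm38.p6. The windows are chr6:52204538-52204837 (minus strand) for Hoxa5, chr6:52218524-52218823 (minus) for Hoxa7, chr2:74704365-74704664 (plus) for Hoxd8 and chr2:74697513-74697812 (plus) for Hoxd9.
Hoxa5: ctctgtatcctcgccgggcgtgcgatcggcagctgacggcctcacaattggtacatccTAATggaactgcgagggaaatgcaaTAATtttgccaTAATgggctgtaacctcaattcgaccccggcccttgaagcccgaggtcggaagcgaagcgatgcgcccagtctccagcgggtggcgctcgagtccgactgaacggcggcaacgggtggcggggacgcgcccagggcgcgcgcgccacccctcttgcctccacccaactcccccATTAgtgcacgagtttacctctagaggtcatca
Hoxa7: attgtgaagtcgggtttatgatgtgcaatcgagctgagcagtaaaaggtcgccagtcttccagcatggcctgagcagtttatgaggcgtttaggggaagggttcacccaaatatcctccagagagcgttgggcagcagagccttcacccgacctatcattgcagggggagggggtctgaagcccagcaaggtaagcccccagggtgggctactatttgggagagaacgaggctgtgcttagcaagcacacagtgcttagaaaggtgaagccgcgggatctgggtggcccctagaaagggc
Hoxd8: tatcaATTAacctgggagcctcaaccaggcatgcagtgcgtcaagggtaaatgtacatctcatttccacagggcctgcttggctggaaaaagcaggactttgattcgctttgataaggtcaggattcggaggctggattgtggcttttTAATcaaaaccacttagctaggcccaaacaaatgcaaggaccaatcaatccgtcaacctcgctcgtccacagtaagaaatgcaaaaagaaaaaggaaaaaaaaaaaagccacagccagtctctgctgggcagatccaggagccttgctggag
Hoxd9: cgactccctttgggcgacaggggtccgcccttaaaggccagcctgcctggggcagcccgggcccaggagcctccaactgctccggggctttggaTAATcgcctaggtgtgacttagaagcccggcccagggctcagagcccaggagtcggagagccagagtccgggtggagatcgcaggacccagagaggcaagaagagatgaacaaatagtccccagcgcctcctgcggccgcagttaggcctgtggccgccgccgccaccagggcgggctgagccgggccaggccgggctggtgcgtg

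The Hoxa5 window holds 4 copies of the core, starting at positions -192, -167, -156 and 18 from the gene start, the Hoxd8 window 2 (-245 and -102), the Hoxd9 window 1 (-156) and the Hoxa7 window none. Both strands were searched and copies could overlap. Of 21 windows found for 19 members, 81% held at least 1 copy, against 58% of 32851 windows of the same length, and 14 members had no window in the table. A copy was held by 80% of the 5 windows of members above the olfactory receptor level and by 81.2% of the other 16. Whether the copies bear on how the arrays behaved was not tested. The members' windows held a median of 15 CpG dinucleotides, against 7 in all windows, and ranged from 4 (Hoxa9 and the first of 2 Hoxd11 windows) to 45 (Hoxa13). These are descriptions of the letters, and a copy of the core is not evidence of a bound site.

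Between tethered and untethered cells, no Hox gene was called different. Limma called 0 of 48 Hox probe sets and 0 of all 45037 (0%) at an adjusted p under 0.05, and the smallest adjusted p was 0.989. At an unadjusted p under 0.05 there were 0 Hox probe sets, where 3.96% of all probe sets passed. The groups did not overlap on 3 Hox probe sets, those of Hoxa3 and Hoxc6 given above, against 9.68% of all probe sets. The 95% interval of the difference lay within 1.5-fold in either direction for 42 of 48 Hox probe sets (87.5%), against 85.5% of all. The exceptions were probe sets of Hoxa3 (1427433_s_at, interval -1.32 to 1.13), Hoxa4 (both), Hoxa5 (1448926_at), Hoxd1 and Hoxd13 (1422239_at), 6 in all. Above the olfactory receptor level the interval lay within 1.5-fold for 12 of 13 Hox probe sets, against 76.9% of all probe sets. The other 30 were among the 35 Hox probe sets below the level. There a narrow interval says little about the RNA: it was also found for 43 of 44 olfactory receptor probe sets (97.7%).

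**Figure D3:**
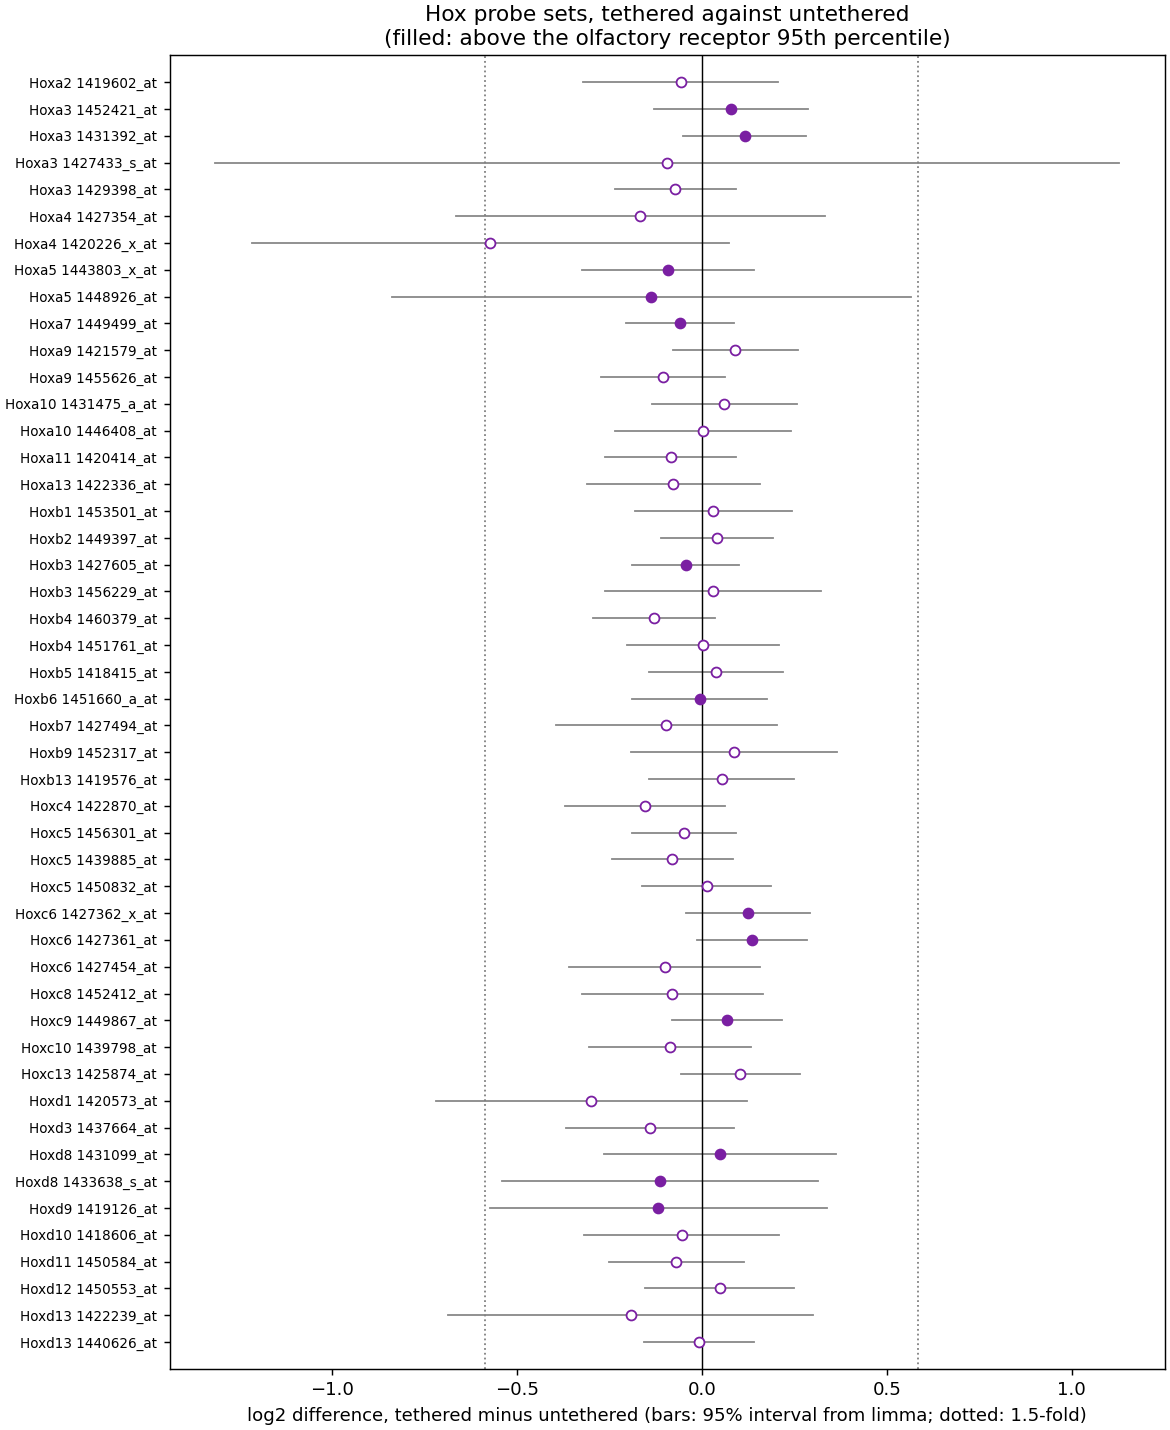
Log2 difference between tethered and untethered arrays (horizontal axis) for the 48 Hox probe sets, with limma's 95% interval as a bar and dotted lines at 1.5-fold. Filled points lie above the olfactory receptor 95th percentile; every interval includes 0, and 42 lie within the dotted lines.

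The differences were small in all clusters. Of the Hox probe sets 19 were higher and 29 lower in tethered cells, with a median of -0.056, where the median of all probe sets was -0.003. The medians were -0.074 for Hoxa, 0.030 for Hoxb, -0.049 for Hoxc and -0.090 for Hoxd, and on the 13 probe sets above the olfactory receptor level the median was -0.0049. The lowest values belonged to dim probe sets: Hoxa4 1420226_x_at (90.4, 63.6 and 82.4 in tethered against 78.7, 132 and 150 in untethered replicates, log2 difference -0.57, SE 0.27) and Hoxd1 (-0.30, SE 0.17), both named after their values were seen. Without untethered replicate 1 they stood at -0.85 and -0.46, and neither passed the adjusted threshold. Of 11 genes with several probe sets, 7 had differences of both signs.

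For some Hox probe sets the widest spread lay between replicate numbers and not between groups. Both arrays numbered 1 lay outside the range of the other 4 on 16 of 48 Hox probe sets, lower on 13 and higher on 3. Among all 45037 probe sets this held for 12463 (27.7%), of which 4901 were higher and the rest lower. The mean intensity of the arrays numbered 1 against the other 4 was 569.9 against 1286 for Hoxa3 1427433_s_at, 1014 against 1632 for Hoxa5 1448926_at, 898 against 1204 for Hoxd8 1433638_s_at and 278 against 371 for Hoxa4 1427354_at. On each of these 4 probe sets tethered replicate 1 was the lowest array and untethered replicate 1 the next. Hoxd13 1422239_at (739 against 580), Hoxb7 (401 against 334) and Hoxd11 (282 against 259) were the 3 higher ones. The replicate number was tested with the group as a second term, a test added after the data were seen. Limma called 0 Hox probe sets (smallest adjusted p = 0.119) and 1.43% of all probe sets at an adjusted p under 0.05. At an unadjusted p under 0.05 there were 8 of 48 Hox probe sets, a share close to that of all probe sets (7405 of 45037). Outside the family, Prrx1 read 1803 and 2690 on the arrays numbered 1 (tethered, then untethered) and between 3696 and 4208 on the other 4, and the fibroblast marker Pdgfra read 392 and 634 against 1065 to 1303, Pdgfra being named after its values were seen. RNA quality was read from the array's probe sets at the ends of the transferrin receptor and Gapdh mRNAs. For the transferrin receptor the 5′ minus 3′ log2 difference was -2.09 and -2.81 on the arrays numbered 1 and -3.07 to -1.52 on the others. For Gapdh it was 0.095 and 0.038 on the arrays numbered 1 and -0.060 to 0.088 on the others. The part of RNA quality in these values was not tested.

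**Figure D4:**
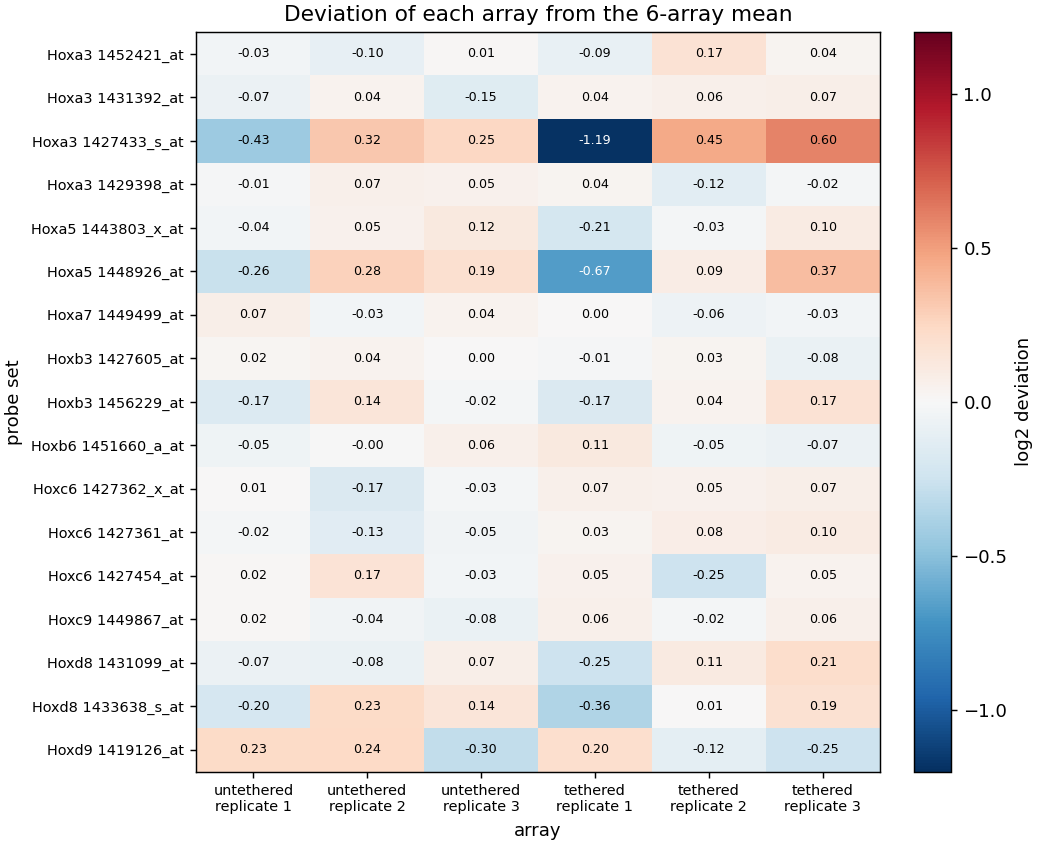
Deviation of each array (columns) from the 6-array mean log2 intensity for the 17 probe sets (rows) of the 9 Hox genes with a probe set above the olfactory receptor level, red above and blue below the mean, with the value printed in each cell. The arrays numbered 1 stand low for Hoxa3 1427433_s_at (-1.19 and -0.43) and Hoxa5 1448926_at (-0.67 and -0.26), while no cell of the Hoxa7 and Hoxc9 rows lies further than 0.076 from its mean.

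Hox proteins bind DNA with the TALE homeodomain partners of the Pbx, Meis and Pknox families. Of 8 measured cofactor genes, 0 were called in either direction (0 at an unadjusted p under 0.05), and 3 lay above the olfactory receptor level. For this and the lists below, the share of all genes above that level was 43.0%. The smallest p belonged to Meis2 (-0.32, SE 0.13) and Meis3 (0.21, SE 0.11), and Meis1 stood at 0.07 (SE 0.098). The list's median was -0.006.

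Among 8 relatives outside the main series, the ParaHox genes and the Evx genes at the cluster ends, 0 lay above the olfactory receptor level and 0 were called. Evx1, which lies beside Hoxa13, had a difference of 0.25 (SE 0.085) with groups that did not overlap, the 1 member at an unadjusted p under 0.05, and Cdx1 stood at -0.08 (SE 0.065). The list's median was 0.02. Of 14 measured genes beside the clusters, 8 lay above the level, 0 were called and the median was -0.02. Skap2, which lies beside the Hoxa cluster, stood at -0.19 (SE 0.080) with groups that did not overlap, and Atf2, near the Hoxd cluster, at -0.29 (SE 0.13).

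Of 36 measured positional transcription factors of other families, 14 lay above the olfactory receptor level, where 43.0% of all genes did. In this list 0 were called, 1 had an unadjusted p under 0.05 and the median was -0.04. Tbx5, the forelimb factor, lay above the olfactory receptor level with a mean log2 intensity of 10.16, and Pitx1, the hindlimb factor, below it at 8.93; probe sets of different genes are not compared by amount. Their differences were 0.05 (SE 0.076) and -0.03 (SE 0.074), the second turning to 0.02 without untethered replicate 3. Tbx15, which acts in the skin and skeleton of the trunk, stood at -0.11 (SE 0.065) and Prrx1, a factor of limb and craniofacial mesenchyme, at -0.20 (SE 0.34), turning to 0.17 without tethered replicate 1. En1, a factor of the ventral limb and a lineage of dermal fibroblasts, had the smallest p of the list at -0.28 (SE 0.10), on a dim probe set (8.21).

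The chromatin regulators of Hox clusters, Polycomb repressors and Trithorax activators, had 18 measured genes, 14 above the level, with 0 called, 2 at an unadjusted p under 0.05 and a median of -0.07. Those 2 were Jarid2, a Polycomb partner (-0.25, SE 0.070), and Kmt2d, an H3K4 methyltransferase (-0.20, SE 0.075). The retinoic acid pathway, whose ligand switches on anterior Hox genes in the embryo, had 16 measured genes, 6 above the level, with 0 called and 0 at an unadjusted p under 0.05. Its median was 0.03, with Rxra, a retinoid X receptor, at 0.17 (SE 0.075) and Cyp26b1, which degrades retinoic acid, at 0.12 (SE 0.076).

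All 11 measured fibroblast markers had differences below 0 (median -0.15), with Pdgfrb at -0.73 (SE 0.24) and groups that did not overlap. The count and the median rest on tethered replicate 1: without it 3 of 11 (Fn1, Pdgfrb and Lum) were below 0 and the median was 0.067. Their summed intensity ran from 78970 to 106486 in tethered and from 96241 to 105315 in untethered arrays. None passed the adjusted threshold. The 5 endothelial markers were all below the olfactory receptor level, with summed intensities from 2022 to 2077 in tethered and from 1853 to 1942 in untethered arrays, and the sums of the epithelial, blood, neural and muscle lists overlapped between the groups. The part of either list in the Hox values was not tested. In total RNA from a culture, fewer cells with a transcript and less of it per cell cannot be told apart.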

How the data were processed

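The authors deposited a linear intensity for each probe set of 6 Affymetrix arrays, 3 tethered and 3 untethered. Labelling followed Affymetrix protocols, per the labels; the software behind the values and their scaling: not given in the sources used here. Of 45101 probe sets 64 controls were left out. Intensities under 16 were set to 16 and log2 was taken. Limma 3.58.1 (R 4.3.3) compared the groups over all 6 arrays and all 45037 probe sets, two-sided, with no filter and no covariate; p-values were adjusted by Benjamini-Hochberg and called under 0.05. Errors are limma's standard errors. The number of arrays limits the precision.

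Members are named by platform symbol. For other lists the brightest probe set stood for a gene, with symbols updated through RefSeq (GRCm38.p6). Values by array are given for up to 6 genes per cluster, those brightest above the olfactory receptor level, and for any above it with an unadjusted p under 0.05 or groups apart; other members by range. From each other list at most 4 genes of smallest p were named (2 here), plus Meis1, Pitx1, Tbx5, Tbx15 and Prrx1. Some items are not reported here. Members and lists were chosen with earlier results of these data known. The procedure was tested on simulated data with noise independent between arrays, so without the shifts by replicate number seen here. Alternatives were floors of 1 and 64, quantile and median scaling, a filter on signal, a prior trend, a replicate block and arrays left out.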

Additional observations from a re-analysis of the deposited data

How the results depend on the processing

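Under every setting tried, 0 Hox probe sets and 0 probe sets in all were called between the groups, and 0 genes of the 6 other lists. Groups of 3 arrays limit what can be called, and dim probe sets carry little signal over background. Hox probe sets at an unadjusted p under 0.05 numbered 1 with a floor of 64 (Hoxc6 1427361_at), 2 without both arrays numbered 1 (Hoxa4 1420226_x_at and Hoxd1), and 0 to 3 with 1 array left out. The replicate block changed no call, with 0 Hox probe sets called and 0 at an unadjusted p under 0.05. Arrays of the same number deviated together for numbers 1 and 3 (correlations 0.62 and 0.60) and not for number 2 (0.072). The numbers were therefore not taken as pairs. Shifts shared by arrays of the same number thus enter the standard errors and intervals of the main fit.

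The Hox count above the olfactory receptor level was 13 or 14 with arrays left out, 6 at the 99th percentile and 23 above the median of all probe sets. With the filter on signal (23 Hox probe sets) the medians were -0.0049 for all Hox and 0.087 for Hoxc, 0.082 for the ParaHox and Evx list and 0.024 for positional factors. Without both arrays numbered 1 the Hoxc median was -0.026, the ParaHox and Evx median 0.065, and those of genes beside the clusters -0.10, positional factors 0.027 and the retinoic acid pathway 0.095. Leaving out each array in turn gave medians of -0.052 to -0.0074 for all Hox, -0.10 to 0.0016 for Hoxa, -0.016 to 0.034 for Hoxb, -0.060 to -0.0065 for Hoxc, -0.089 to -0.041 for Hoxd, -0.14 to 0.016 for genes beside the clusters and -0.052 to 0.032 for positional factors. With 1 array left out the difference changed sign for 18 of 48 Hox probe sets, 4 of them among the 13 above the olfactory receptor level. Among the probe sets followed through the settings, those that changed sign were Hoxb6, at 0.023 after quantile normalization, 0.0030 after median centring and -0.063 to 0.031 with 1 array left out, and, with 1 array left out, Hoxa3 1427433_s_at (-0.42 to 0.48), Hoxa5 1448926_at (-0.36 to 0.16), Hoxd8 1433638_s_at (-0.24 to 0.041), Hoxd8 1431099_at (-0.043 to 0.19), Prrx1 (-0.40 to 0.17), Meis1 (-0.0031 to 0.14) and Pitx1 (-0.072 to 0.016). The fibroblast markers below 0 numbered 3 to 11 and their median ran from -0.29 to 0.067 with 1 array left out, chosen after seeing the data. The test of the replicate number called 645 probe sets in all, 0 with a floor of 64 and 1161 with the filter. The cause of these shifts was not tested.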
